A study of Drosophila melanogaster with 3 samples.

Results

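Tet is a single protein-coding gene, FBgn0263392, on the minus strand of chromosome 3L of Drosophila melanogaster, from 2786207 to 2879158 on the dm6 assembly. Its sites were taken as every region of the Smox-GFP peak lists whose summit lay in the gene or within 10 kb either side of it. This rule gave 23 of the 6622 peaks that passed the authors' reproducibility threshold, and 67 of the 30000 regions called on the pooled replicates. Tet itself was chosen by these measured values, as a gene with many thresholded summits and a high-ranking one, so its count and its best rank are given as a description, with no test.

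Tet is the only fly member of the TET family, iron-dependent dioxygenases that in mammals oxidise methylated cytosine in DNA. Fly DNA carries very little methylated cytosine. The fly enzyme oxidises methylated cytosine in RNA, and it has also been reported to remove methylated adenine from DNA. The gene makes a long protein with a CXXC zinc finger, a DNA-binding domain, from its distal start site, and a short protein that lacks this domain from an internal start site. Flies without Tet die as pupae or soon after, and the gene is strongly expressed in the nervous system, where it acts in brain development, including that of the mushroom body.

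Smox is the SMAD transcription factor of the Activin branch of TGF-beta signalling. Chromatin was prepared from whole white prepupae, the stage at the onset of metamorphosis, of a fly line that stably carries Smox fused to GFP at its C terminus, and was precipitated through the GFP. Both sexes were pooled, the age in hours was not given, and all tissues of the animal contributed, so a region bound in a small tissue and one bound weakly everywhere cannot be told apart. The series holds 1 group of 3 biological replicates of this line, with no other genotype or treatment, so the comparisons below are between replicates, between sites and between genes.

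Every site is given by its rank, where 1 is the region with the highest score from the authors' peak caller in that list. The pooled list and each replicate list had 30000 regions, and the thresholded list held exactly the 6622 strongest regions of the pooled list. Counts per replicate were made on the 6622 strongest regions of that replicate. No read counts were in the lists, so the depth behind a rank is unknown. The replicate lists held no identical scored line.

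The sequences below reach 75 bp to either side of 7 summits: the 5 strongest of the locus and those at the 2 start sites of the gene. They are read 5′ to 3′ in the direction of Tet (minus strand, dm6) from the RefSeq Release 6 genome sequence. Capitals mark matches to the sequence elements that are counted further on: the SMAD box (GTCT or its reverse complement AGAC), the homeodomain core TAATTA, the TATA box hexamer (TATAAA or TTTATA) and the GAGA factor repeat (GAGAG or CTCTC).
Strongest summit, chr3L:2824137-2824287: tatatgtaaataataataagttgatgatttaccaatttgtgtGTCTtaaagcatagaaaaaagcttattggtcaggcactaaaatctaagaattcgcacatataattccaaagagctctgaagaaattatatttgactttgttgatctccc
Second summit, chr3L:2869164-2869314: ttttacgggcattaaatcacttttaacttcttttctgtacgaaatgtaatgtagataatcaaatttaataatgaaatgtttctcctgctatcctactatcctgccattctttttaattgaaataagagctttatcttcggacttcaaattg
Next summit, chr3L:2847355-2847505: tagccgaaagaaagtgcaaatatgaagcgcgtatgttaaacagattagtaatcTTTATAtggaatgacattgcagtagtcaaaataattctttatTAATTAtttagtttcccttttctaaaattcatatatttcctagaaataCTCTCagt
Neighbour of the strongest, chr3L:2823055-2823205: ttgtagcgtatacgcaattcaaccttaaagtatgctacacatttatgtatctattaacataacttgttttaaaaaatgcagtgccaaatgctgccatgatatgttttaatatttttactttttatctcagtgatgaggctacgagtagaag
Summit in intron 7, chr3L:2795661-2795811: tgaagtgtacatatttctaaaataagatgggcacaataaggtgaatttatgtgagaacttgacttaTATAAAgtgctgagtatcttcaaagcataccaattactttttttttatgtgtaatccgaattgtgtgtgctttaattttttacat
Internal start site, chr3L:2821074-2821224: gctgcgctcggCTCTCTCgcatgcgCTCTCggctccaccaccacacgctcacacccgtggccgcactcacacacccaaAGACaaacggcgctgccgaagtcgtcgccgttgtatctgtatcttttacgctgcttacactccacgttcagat
Distal start site, below the threshold, chr3L:2879225-2879375: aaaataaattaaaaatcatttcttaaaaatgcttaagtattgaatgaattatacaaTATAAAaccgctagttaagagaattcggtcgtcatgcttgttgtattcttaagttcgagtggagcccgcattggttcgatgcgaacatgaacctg
The strongest of them, at pooled rank 96, is AT-rich and holds 1 SMAD box. The window at the internal start site differs from the others in plain view: it holds 3 GAGA matches in its upstream end, 2 of them overlapping, 1 SMAD box, and a GC content of 59.6%, against 27.8% to 31.1% in the 5 strongest windows.

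Tet has 6 annotated transcripts with 2 start sites. Tet-RA, Tet-RB, Tet-RE and Tet-RF start at the distal site, 2879158, and encode proteins of 2860 to 2921 residues. Tet-RC and Tet-RD start at the internal site, 2821103, which lies 58.1 kb further into the gene, and encode 2056 residues. Their first exon is noncoding, and translation begins in the next one, at 2796318. Merged over transcripts the gene has 12 exon blocks and 11 introns. Introns are numbered here in the direction of transcription, and the internal start site marks the downstream end of intron 5.

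Smox-GFP summits at Tet were intronic. All 23 thresholded summits lay in introns, 22 in introns of Tet and 1 in an intron of the neighbour spz5, which encodes a neurotrophin-like ligand of the Toll receptor family. Among the 22, that at 2821149 lay 46 bp upstream of the internal start site and counts as intronic only through the long transcripts. The intronic share of all thresholded summits is not given here, so the count is not shown to be particular to Tet. Introns made up 74.4% of the window's bases. Coding exons made up 15.1% of the bases and held 0 thresholded summits, noncoding exons made up 6.51% and held 0, and intergenic sequence made up 3.95% and held 0. Among the 44 pooled regions below the threshold, 38 lay in introns, 4 in intergenic sequence, 1 in a coding exon and 1 in a noncoding exon. The nearest exon of any gene was 46 to 14047 bp away from a thresholded summit, with a median of 2374 bp.

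**Figure D1:**
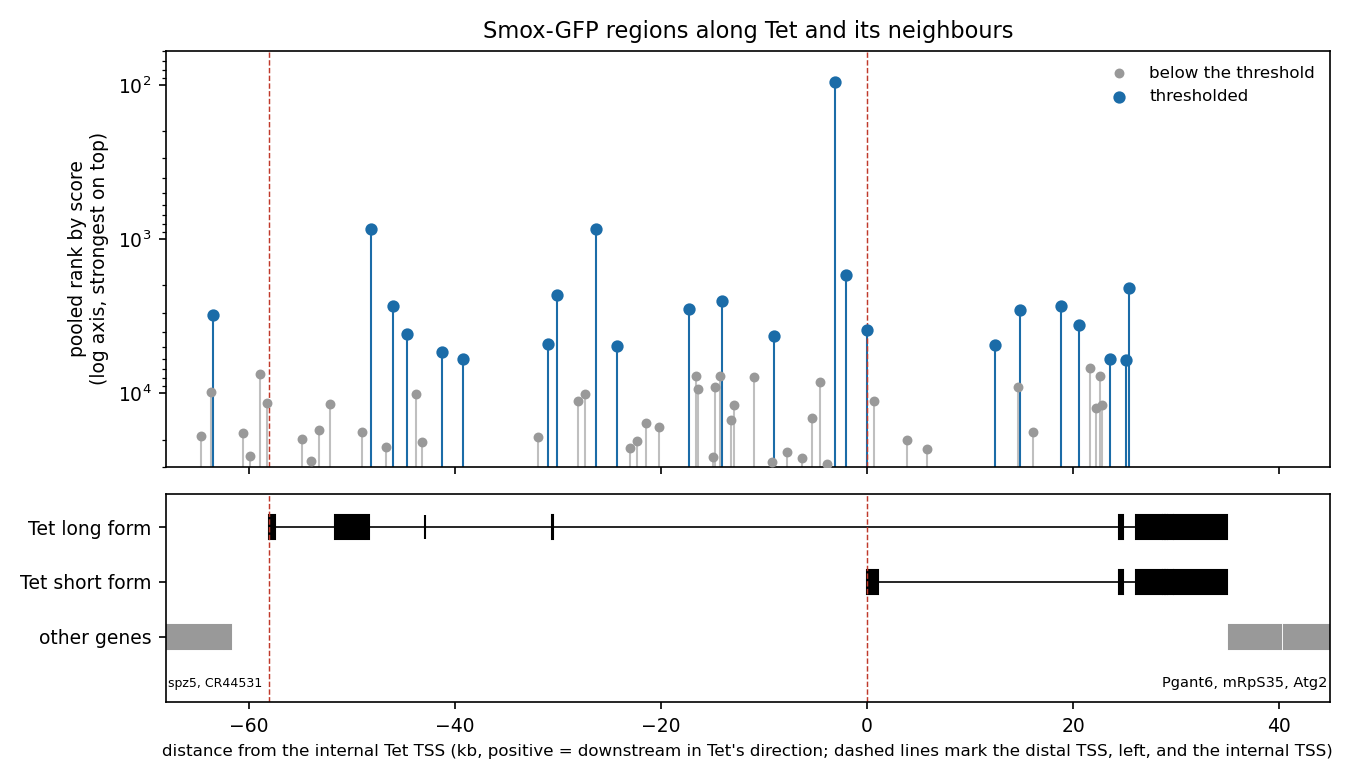
Smox-GFP regions of the pooled list along Tet, with the distance from the internal start site in kb on the x axis and the pooled rank on a log axis with the strongest on top, above the merged exons of the long and short forms and the neighbouring genes drawn as whole blocks. The point at rank 96 stands 3109 bp upstream of the internal start site, the distal start site has no thresholded summit, and no region lies in the exon-rich end of the gene on the right.

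Of the 23 summits, 1 (4.35%) was within 500 bp of any start site. Of all 6600 thresholded summits on the main chromosome arms, 2250 (34.1%) were that close. The share of the window's bases within 500 bp of a start site is not given here. The value of 4.35% is therefore not shown to be low for a window with so few start sites. In replicates 1, 2 and 3, the strongest 6622 regions placed 1, 1 and 0 summits of the Tet window within 500 bp of a start site. The median distance from a Tet summit to the nearest start site of any gene was 14047 bp and the largest 28000 bp, and 19 of the 23 were more than 5 kb away. The 2 start sites of Tet lie 58.1 kb apart, and such distances are not given here for all thresholded summits. The positions of the summits were known when Tet was chosen and carry no test.

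The strongest site of Tet lay in intron 5, a short way upstream of the internal start site. Its summit at 2824212 (interval 2823990 to 2824434) was at -3109 bp from that start site and had pooled rank 96. It was ranked 94 in replicate 1, 100 in replicate 2 and 86 in replicate 3, so each replicate had it among its 100 strongest regions. Of the 93 regions on the main chromosome arms among the 100 strongest, 21 (22.6%) were more than 1 kb from a start site and 8 more than 3 kb. A smaller summit stood 1082 bp closer to the start site, at 2823130 or -2027 bp, with pooled rank 1713 and ranks 2153, 1594 and 1603 in replicates 1, 2 and 3.

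The internal start site itself carried a weaker summit that the replicates did not share equally. At 2821149, 46 bp upstream of the start of Tet-RC and Tet-RD, it had pooled rank 3903. Its rank was 5288 in replicate 1, 3047 in replicate 2 and 14956 in replicate 3, where it fell outside the strongest 6622. Replicate 3 was thus the low one, and the highest rank was 4.91 times the lowest, the widest ratio among the 23 sites. It is the only thresholded summit of the window that a promoter definition of 500 bp, 250 bp or 1000 bp picks out.

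The distal start site, from which the long protein is made, had no thresholded summit. The closest one lay at -5444 bp, in spz5, and the closest within Tet lay 9919 bp downstream. The strongest pooled region within 500 bp of it was ranked 11524, at -142 bp. In the replicates the strongest within 500 bp were ranked 13065 at -159 bp, 8541 at -153 bp and 28524 at -368 bp. Within 1 kb the pooled list gave rank 7502 at -828 bp, and the replicates gave 9217, 5734 and 8881. Only replicate 2 therefore placed a region within 1 kb of the distal start site among its strongest 6622. Among 19253 distinct protein-coding start sites, 2811 (14.6%) had such a summit within 500 bp, so a start site without one was the common case.

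Between the 2 start sites, in the part of the gene that only the long transcripts cover, there were 15 thresholded summits. The first of them in the direction of transcription, at 2869239 in intron 3 and 210 bp from an exon, was the second strongest of the locus: pooled rank 861, and 746, 835 and 1442 in replicates 1, 2 and 3. Its 2 companions in intron 3, at 2867075 and 2865749, had pooled ranks of 2710 and 4109. The replicates ranked the summit at 2867075 3221, 3009 and 3164, and the one at 2865749 4430, 4312 and 4977. Intron 3 thus held 3 summits in 5.4 kb, all of them among the strongest 6622 of every replicate.

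Intron 4, of 12.3 kb, held 3 weaker summits. That at 2862380 had pooled rank 5376 and ranks 6094, 5269 and 7224, and that at 2860307 had pooled rank 5984 and ranks 6288, 7211 and 6437, so each missed the strongest 6622 of 1 replicate. The summit at 2852030 had pooled rank 4811 and ranks 6391, 4587 and 5136.

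Intron 5, the longest stretch between merged exon blocks at 30.5 kb, held 9 thresholded summits and 29 pooled regions. Beside the 3 near the internal start site described above, the strongest was at 2847430, at -26327 bp from that start site, with pooled rank 865 and ranks 1123, 827 and 786. The others were at 2851158 (pooled rank 2291), 2845394 (4921), 2838406 (2852), 2835150 (2511) and 2830156 (4261). All 5 were among the strongest 6622 of each replicate. The widest disagreement among these 5 was at 2830156, ranked 5303, 3164 and 6385 in replicates 1, 2 and 3.

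Downstream of the internal start site, in the 34.9 kb that the long and short transcripts share, there were 7 summits. Intron 6, of 23.4 kb, held 5 of them. At 2800503 the pooled rank was 3597 and the replicate ranks 4812, 3445 and 3526. At 2802250 they were 2700 and 2186, 2833 and 6179, and at 2806258 they were 2882 and 4329, 3482 and 1926. Replicate 3 was the low one at the first of this pair and the high one at the other. The summits at 2797575 (pooled rank 6002, replicates 12782, 4425 and 5300) and 2808684 (pooled rank 4839, replicates 6454, 4483 and 12532) each fell outside the strongest 6622 in 1 replicate when the nearest summit is followed. Intron 7, only 1.3 kb long, held a pair of overlapping peaks with summits 199 bp apart, at 2795736 and 2795935. The first had pooled rank 2078 and ranks 2619, 1975 and 2464. The other was the weakest of the 23, with pooled rank 6131 and ranks 7829, 6517 and 15799. A gap of 199 bp was also the smallest between any 2 thresholded summits in the whole list.

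**Figure D2:**
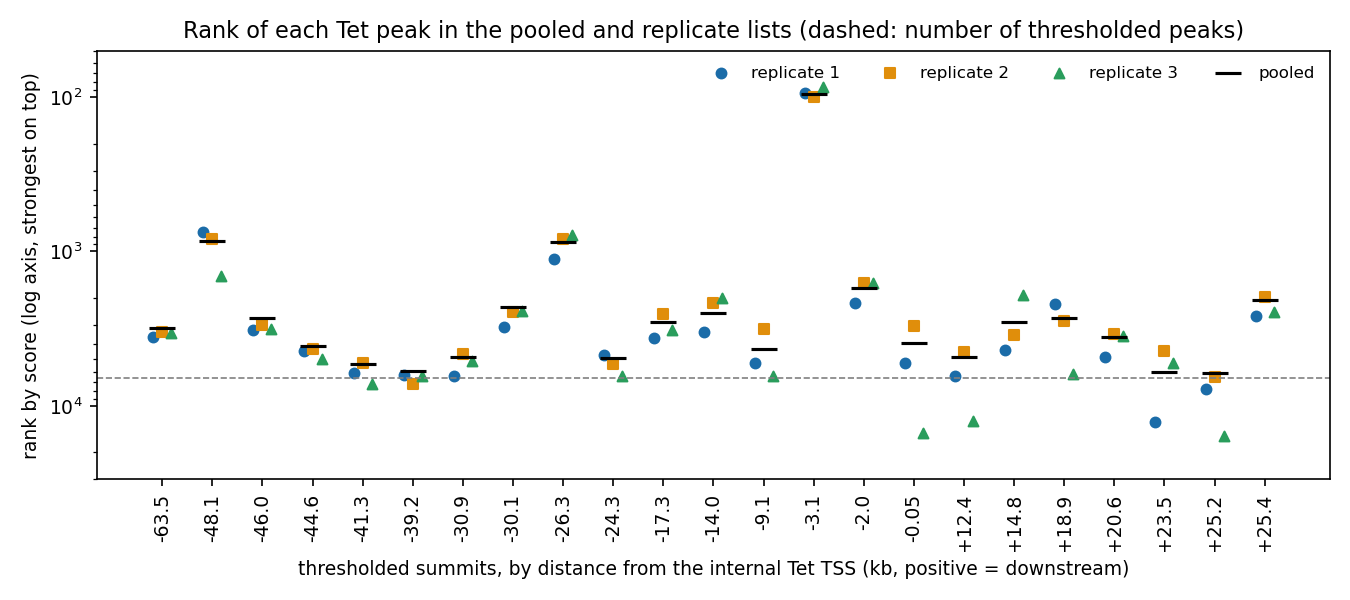
Rank of each of the 23 thresholded Tet summits in the pooled list (black bars) and in replicates 1 to 3 (symbols), ordered along the gene by distance from the internal start site in kb, on a log axis with the strongest on top and a dashed line at 6622. The site at -3.1 kb is ranked between 86 and 100 in every list. Replicate 3 falls far below the line at the internal start site (14956), at +12.4 kb (12532) and at +25.2 kb (15799), and replicate 1 at +23.5 kb (12782).

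Counted over the window, the replicates gave 21, 26 and 23 summits among their strongest 6622 regions, or 23.3 ± 2.52 (SD, n = 3). The thresholded count of 23 lay within this spread. The whole lists of 30000 gave 64, 67 and 59 (63.3 ± 4.04, SD, n = 3). A thresholded peak was called covered by a replicate when at least 1 bp of it overlapped one of that replicate's strongest 6622 regions. Replicates 1, 2 and 3 covered 22, 22 and 21 of the 23 peaks, and 19 (82.6%) were covered in all 3, while over all thresholded peaks 4755 of 6622 (71.8%) were. The other 4 were covered in 2 replicates. They were the sites at 2797575, 2821149, 2860307 and 2862380. Against the whole replicate lists all 23 were covered in every replicate. The threshold was derived from these same replicates, so coverage describes agreement and is no independent check.

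A few of these calls rest on a neighbour. The peak at 2795935 was covered in replicates 1 and 3 through the region whose summit lies at the other peak of the pair, 199 and 200 bp away. The peak at 2808684 was covered in replicate 3 by a region with its summit 131 bp off, ranked 6341, while a nearer summit was ranked 12532. Matching summits within 100 bp left 16 peaks shared by all 3 replicates. In general the positions were close: the median offset between a thresholded summit and the nearest summit in a replicate was 17 bp and the largest 129 bp. Over the 23 peaks the ranks of replicates 1 and 2 had a Spearman rho of 0.884, those of replicates 1 and 3 of 0.82, and those of replicates 2 and 3 of 0.805. These are descriptions of 23 points from a single locus that share the fly line and the choice by threshold.

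Few replicate regions were missed by the threshold. Replicate 1 had 0 regions among its strongest 6622 in the window without a thresholded peak, replicate 2 had 3 and replicate 3 had 2. The one that 2 replicates shared was at about 2799461 in intron 6, ranked 5299 in replicate 2 and 6032 in replicate 3, against 14608 in replicate 1, and its pooled rank was 6862. Among the regions of the window, that rank made it the first below the threshold, followed by ranks 7502 and 7702. The weakest of the window above the threshold had ranks 6131, 6002 and 5984. The ranks of the 23 spread over the whole range of the thresholded list, with a median of 3128 against 3311.5 for all thresholded peaks. Of the 23, 3 were among the strongest 1000 and 12 in the stronger part of the list, above its midpoint.

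The summits were spaced through the gene and left its ends free. From the first to the last within Tet they spanned 73.5 kb. The 22 gaps between neighbouring summits of the window had a median of 2677 bp, with 2 under 1 kb, 15 between 1 and 5 kb and 5 longer. The median gap in replicates 1, 2 and 3 was 3279, 2221 and 2238.5 bp. The longest gap within the gene was 12465 bp, between 2808684 and the internal start site. At the 3′ end the first summit stood 9.5 kb inside the gene, and no list had a region of the window before it. That stretch holds the last 5 exon blocks, which carry most of the shared coding sequence, and the introns among them are at most 154 bp long. At the 5′ end, intron 1, of 5.8 kb, had 0 thresholded summits and 4 weaker pooled regions.

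By length, the density of thresholded summits was 5.57 per 10 kb in intron 3, 2.43 in intron 4, 2.96 in intron 5, 2.14 in intron 6 and 15.9 in the short intron 7. The value of intron 7 rests on 2 overlapping peaks, and replicates 1 and 3 each had only 1 summit there. In replicates 1, 2 and 3, intron 3 held 3, 3 and 3 summits, intron 4 held 3, 2 and 2, intron 5 held 9, 11 and 10, and intron 6 held 4, 6 and 6. Per 10 kb this was 2.96, 3.61 and 3.28 in intron 5, 2.43, 1.62 and 1.62 in intron 4, and 1.71, 2.57 and 2.57 in intron 6. Among these stretches between merged exon blocks, intron 5 was thus denser than introns 4 and 6 in every replicate. The order of introns 4 and 6 differed between replicates.

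The flanking genes had few summits within their bodies. Next to the 3′ end lie Pgant6, an enzyme gene of mucin-type glycosylation, mRpS35, a mitochondrial ribosomal protein gene, and Atg2, an autophagy gene. Within the gene, each of them had 0 thresholded summits, 0 pooled regions and 0 regions among the strongest 6622 of any replicate. The thresholded summit nearest to the start site of mRpS35 had rank 533 and lay at -6828 bp. This put it upstream of the start of Atg2 at 2774338, within 500 bp of that start. It lay beyond the 10 kb flank of Tet, so it is not among the 23 summits of the window. On the 5′ side the noncoding RNA gene lncRNA:CR44531 also had 0 in each of these lists. The gene spz5 had 1 thresholded summit, at 2884602, with pooled rank 3128 and ranks 3608, 3330 and 3366. Without the flanks, Tet had 22 thresholded summits and 20, 24 and 22 in the replicates.

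Set against other genes, the count at Tet was high for its length. With the same 10 kb either side, 8159 of 13945 protein-coding genes (58.5%) contained or adjoined at least 1 thresholded summit, and the median gene had 1. Only 3 genes (0.0215%), Tet included, had 23 or more. The others were kirre, a cell adhesion gene of myoblast fusion, with 31, and sbb, a transcriptional corepressor gene, with 27. Tet took place 3 in the thresholded list and also in the lists of replicates 1, 2 and 3, where it shared that place with ush in replicate 1. It was the 98th longest gene, at 93.0 kb. The 307 genes of at least 50 kb had a median of 4 summits, and 101 of them had none within the gene itself. Within the gene, Tet had 2.37 summits per 10 kb, against a median of 0.313 in those long genes and 0.493 over the genome, and 6 of the 307, Tet included, were as dense. These values describe what led to the choice of Tet and support nothing further.

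**Figure D3:**
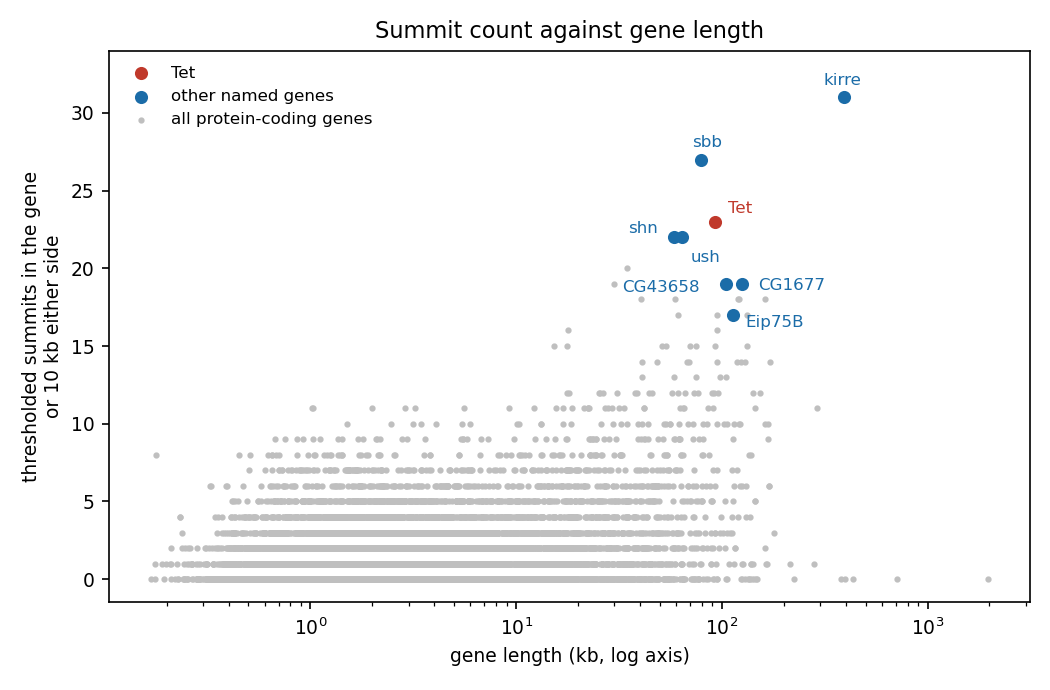
Thresholded summits in each protein-coding gene or within 10 kb of it, against gene length in kb on a log axis. Tet, at 93.0 kb and 23 summits, lies below kirre (31) and sbb (27) and above the other labelled genes, while the median gene has 1.

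The 5 genes with counts most like those of Tet over the lists were picked for comparison. Likeness was measured as the summed absolute difference from Tet in 4 counts, those of the thresholded list and of the strongest 6622 regions of the 3 replicates, over the 344 other genes of 0.5 to 2 times its length. The 5 nearest were ush, shn, CG43658, CG1677 and sbb, with differences of 11, 11, 18, 18 and 23. The GATA cofactor gene ush had 22 thresholded summits and 21, 21 and 18 in replicates 1, 2 and 3, and its strongest peak was ranked 3. The zinc finger gene shn, a nuclear partner of SMAD proteins in the BMP branch, had 22 and 20, 19 and 21, with a best rank of 200. CG43658 had 19 and 20, 19 and 17, CG1677 had 19 and 20, 18 and 18, and sbb had 27 and 28, 29 and 32. The count of Tet in replicate 2, 26, was above all of these but sbb, and its counts in replicates 1 and 3, 21 and 23, differed from those of ush and shn by no more than 5. The genes were picked by these same counts, so their closeness to Tet follows from the choice and is no result.

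The share of summits near start sites and the spacing varied among these genes. At Tet 1 of 23 summits (4.35%) was within 500 bp of a start site of any gene. At ush the share was 22.7%, at shn 31.8%, at CG43658 15.8%, at CG1677 10.5% and at sbb 7.41%, and at the ecdysone-response gene Eip75B, with 17 summits, it was 17.6%. At kirre, with 31 summits, the share was 19.4%. The median gap was 2.68 kb at Tet, 2.35 kb at ush, 1.17 kb at shn, 3.62 kb at CG43658, 1.89 kb at CG1677, 1.97 kb at sbb and 3.17 kb at Eip75B. It was 6.28 kb at kirre, a gene of 394.1 kb. By best rank Tet, at 96, came after ush (3) and Eip75B (13) and before sbb (109), shn (200), CG1677 (223), kirre (274) and CG43658 (294). The low share at Tet was near those of CG1677 and sbb, where 2 summits each lay within 500 bp of a start site. Small counts stand behind these shares, the density of start sites around each gene was not taken into account, and no difference between the genes was tested.

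The other genes of nucleic acid methylation had counts near those of all genes. A list of 19 genes held writers and readers of methylated adenine in RNA, writers of methylated cytosine, the DNA repair dioxygenase AlkB, and reported partners of Tet with methyl-binding and sugar-modifying proteins. Of these, 12 (63.2%) contained a thresholded summit or had one within 10 kb, against 58.5% of all protein-coding genes. The replicates gave 13, 12 and 14. The share was close to the background, and the median count was 1, as in all genes. Within the gene itself, 3 of the 19 (15.8%) had a summit, against 12.5% of all protein-coding genes.

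Among the adenine-methylation writers, 4 of 7 had a summit in this range. Hakai, encoding a ubiquitin ligase of the writer complex, had 8, the most of the list, with 1 at 51 bp from its start site (rank 3737). The summit at fl(2)d, a writer subunit gene of sex determination and splicing, was 137 bp from the start site (rank 2262), and that at Mettl3, the catalytic subunit gene, 245 bp (rank 6549). All of these were also found within 1 kb of the start site in each replicate. Mettl14 had its nearest summit 9077 bp away, while vir, nito and Flacc had none. Both reader genes, Ythdc1 and Ythdf, had a summit in range, at 3937 and 13674 bp from their start sites.

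Of the cytosine writers, Nsun5, an rRNA methyltransferase gene, had 7 summits with 1 at 72 bp from its start site (rank 1331), Nsun2 had 2 with the nearest at 6772 bp, and Mt2, the fly DNMT2 gene, had none. AlkB had 1, a strong one of rank 31, at 8494 bp from its start site and outside the gene. Among the partners and readers, wds, the fly WDR5 gene, had 6 and jumu, a forkhead gene, had 4, all within the gene and with a best rank of 349. MBD-R2 had 1, ranked 5415, and MBD-like, sxc and Oga had none. Tet had 23, and none of the 19 had more than 8. These genes are short, from 1163 bp at Mt2 to 22268 bp at sxc, and counts with flanks of 10 kb are shared with their neighbours.

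Tet summits had the base composition of the other thresholded summits. The windows of 75 bp to either side of the 23 summits had a mean GC content of 33.8% (SD 7.86 over the 23 windows, range 23.2 to 59.6), against 33.3% over all 6600 summits. At 500 bp to either side the mean was 44.2% for Tet summits and 43.7% for all. The replicates gave 33.3%, 34.7% and 33.9% for their own Tet summits (33.9 ± 0.686, SD, n = 3), so the means of Tet and of all summits differed by less than the spread between replicates. The medians ran the other way, with 31.1% for Tet summits and 32.5% for all, and 31.1%, 32.8% and 33.1% for the Tet summits of replicates 1, 2 and 3. The gene as a whole has 42.5% GC, and the 44 weaker regions of the window had 38.8% at their summits. Of the 23 windows, 20 were lower in GC than the mean of their 2 sides and 15 lower than both. The exception at the top was the internal start site with 59.6%, the next highest being 43.0% at 2852030.

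**Figure D4:**
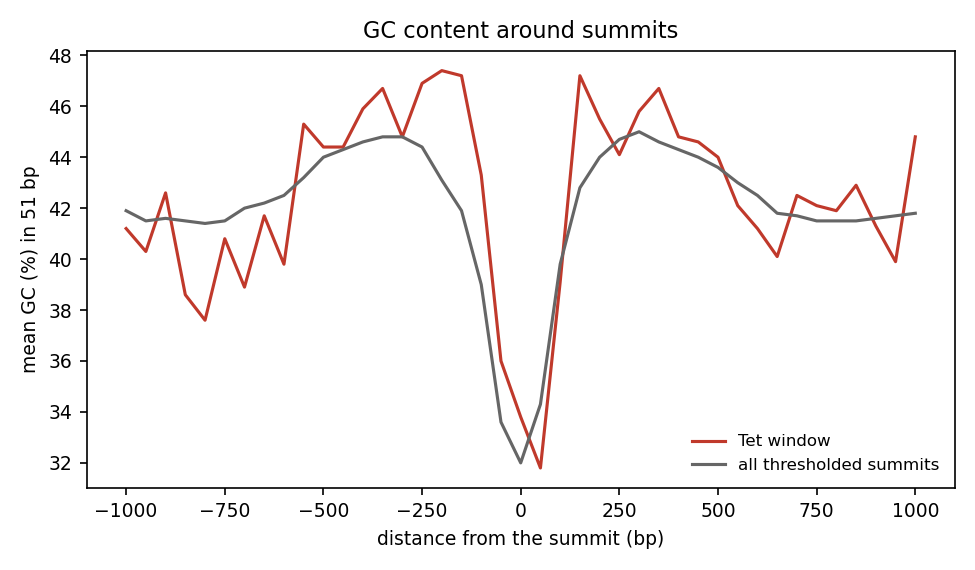
Mean GC content in windows of 51 bp around summits, against the distance from the summit in bp along the plus strand, for the 23 Tet summits and for all thresholded summits. Both curves dip around the summit, where they stand at 33.8% at Tet and 32.0% over all. The Tet curve is lowest at 50 bp, with 31.8%, and rises to 47.4% at -200 bp. At 500 bp to either side both curves are at about 44%.

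A set of 11 sequence elements was searched on both strands of the same windows. The SMAD box GTCT, the short site that SMAD proteins contact, was in 7 of 23 Tet windows (30.4%), against 41.2% of all windows, and in 5, 10 and 9 of the windows of replicates 1, 2 and 3 (23.8%, 38.5% and 39.1%). The GC-rich SMAD element GGCGCC was in 1 Tet window (4.35%), at 2802250, against 1.53% of all. For the SMAD box, the shares of the 3 replicates at Tet all lay below 41.2%. Their range was wider than the distance between 30.4% and 41.2%, and the difference was not tested.

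The hexamer TATAAA was in 12 Tet windows (52.2%), against 32.0% of all windows. The replicates gave 42.9%, 42.3% and 39.1% at Tet, and in replicate 3 the SMAD box was as frequent. With windows of 50 bp to either side TATAAA was in 7 of the 23, as many as held the SMAD box. In 1 window, at 2835150 with a GC content of 23.2%, it matched 4 times. The GAGA factor repeat GAGAG was in 7 windows (30.4%), against 14.6% of all, with 33.3%, 26.9% and 26.1% in the replicates and 4 windows when they reached 50 bp, and 3 of its matches fell in the internal start site window shown above. The homeodomain core TAATTA was in 3 windows (13.0%), against 14.8% of all, and the E-box CACGTG in 1, against 0.939%.

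Some elements had no match in these windows. The BEAF-32 core CGATA was in 0 of 23, against 17.5% of all windows, and in 0, 2 and 0 windows of the replicates. The DRE TATCGATA was in 0, against 1.14% of all windows, the M1BP motif GGTCACAC in 0, against 0.955%, the nuclear receptor site AGGTCA in 0, against 2.89%, and the Zelda core CAGGTA in 0, against 2.88%. CGATA lies within TATCGATA, so these 2 overlap. A match or its absence describes letters within 75 bp of a summit and no more, and with 23 windows of a single locus no share was tested.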

How the data were processed

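ChIP-seq peak lists on dm6 were analysed for 3 biological replicates of 1 group. Per the deposited file listings, the authors called peaks and background regions on each replicate and on the pooled replicates, each with 1 control alignment, and applied an irreproducible discovery rate to obtain the thresholded list. Its cutoff, the aligner, the peak caller and the control material are not given in the sources used. A deposited line holds an interval, a score from the authors' caller of unstated scale, a −log10 q-value as deposited, and a summit offset in bp. Scores served only to rank regions within a list. Summits 1 bp past their interval (2 thresholded lines) were set to its last base. The lists used here hold no read counts, so depth is unknown and no interval is given. Lists on dm3 were not used.

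Genes and start sites came from Ensembl release 115, sequences from the RefSeq Release 6 genome. Shares over summits and genes used 2L, 2R, 3L, 3R, 4 and X, with 6600 summits and 13945 protein-coding genes. Replicate lists were cut to 6622 regions, overlap needed 1 bp, promoters reached 500 bp and windows 75 bp either side of a summit. Genes named were Tet, the genes of the window, the 5 genes most like Tet, kirre and Eip75B, and the 19 methylation genes. The members, lists and measures were chosen with earlier results of these data known. Counting functions were tested on simulated data. Python 3.11.15, numpy 2.4.6, pandas 2.3.3, scipy 1.17.1 and matplotlib 3.10.9 were used. The closing section gives the alternatives tried.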

Additional observations from a re-analysis of the deposited data

How the results depend on the processing

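Of 57 alternatives tried on the counts, ranks, spacing and base composition, 38 stayed within 1.5 times a count or within the replicate SD of a value. Taking only the strongest 1000 or 3000 thresholded peaks left 3 or 11 summits in the Tet window, all of them (3 and 11) covered in every replicate, and 0 within 500 bp of a start site in both cases. The median gap became 22514 or 5261 bp, and 0.947% or 0.0574% of genes had as many summits as Tet. The methylation genes with a summit, 12 at the main setting, became 7 and 9 with the strongest 1000 and 3000 peaks. Within the gene alone they were 3, and with 1 kb and 20 kb either side 6 and 17. The share over all protein-coding genes was taken only for the main setting (58.5%) and the gene alone (12.5%). The other counts therefore cannot be read against a background. With 20 kb either side, 3 summits of the window were within 500 bp of a start site and 0.0287% of genes had as many summits. Whole replicate lists gave a mean of 63.3 summits. Ranking by −log10 q-value put the strongest Tet peak at rank 1, where 1325 regions of the pooled list tie, 3 of them at Tet. Windows of 50 and 100 bp either side gave a mean GC of 32.7% and 35.2%. Leaving out each replicate in turn gave 20 to 21 peaks covered in the remaining replicates and a mean of 22 to 24.5 summits. Of the 22 alternatives for single sequence elements, 3 moved: with 50 bp either side TATAAA was in 7 windows and GAGAG in 4, and with 100 bp CAGGTA was in 1. The cause was not tested. The lists give ranks without read counts, so how firmly a rank near 6622 is placed cannot be said beyond the spread of 3 replicates.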
